A study of Mus musculus with 8 samples.

Results

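The genes described are 7 acyl-CoA thioesterases (Acot1, Acot2, Acot3, Acot4, Acot5, Acot8 and Acot12) and 2 acyltransferases related to them (Acnat1 and Acnat2) in mouse liver. They were found as the array probes carrying these names, which gave 10 of the 41174 gene probes, with 2 probes for Acot4 and 1 for each other gene. The Acot probes were matched by accession under their present names, the Acnat2 probe by accession from the older name C730036D15Rik, and the Acnat1 probe only through the synonym AI132189, so that matching without synonyms gives 9 probes. All 10 probes passed the filter on dim signal, which kept 33330 probes of 22220 genes.

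Liver RNA of ICR scid mice aged 8 wk was hybridised in pairs of pools to 8 two-colour Agilent arrays, 2 for each of 4 comparisons, with the dyes exchanged between the 2 arrays and separate pools on each. All mice carried the scid background. Untreated males were compared with untreated females (10 mice each, 5 per pool). Mice given Adeno-Cux2, an adenovirus that carries the homeobox factor Cux2, were compared with mice given Adeno-CMV, the control virus. These were males killed 5 days after treatment (12 and 13 mice), females killed 5 days after treatment (8 and 7 mice) and males killed 3 days after treatment (11 and 11 mice), in pools of 3 to 7. No sample came from 1 mouse alone, so the errors cover the spread between pools of mice and not between mice, and Adeno-Cux2 was at no point compared on 1 array with untreated mice.

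Acyl-CoA thioesterases split an acyl-CoA into a free acid and coenzyme A, and so set the supply of activated fatty acids for oxidation, lipid synthesis and signalling. In liver the group is spread over the cytosol, the mitochondrion and the peroxisome, and several members are known targets of PPAR-alpha, the nuclear receptor that responds to fatty acids. The Acnat enzymes share the fold of these thioesterases and of Baat, the enzyme that conjugates bile acids. Acnat1 is known to transfer fatty acids to taurine.

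The genes lie in 4 places. On mm8, the build of the array annotation, the probes of the 5 genes Acot1 to Acot5 lay together on chromosome 12, all on the plus strand. They were chr12:84907250-84907309 for Acot1, chr12:84882869-84882928 for Acot2 and chr12:84948386-84948445 for Acot3. The Acot4 probes were chr12:84933619-84933678 and, for the dimmer, chr12:84932960-84933019, and the Acot5 probe was chr12:84965605-84965664. The Acot8 probe lay at chr2:164484065-164484124 on the minus strand and the Acot12 probe at chr13:92260220-92260279 on the plus strand. The Acnat1 and Acnat2 probes were neighbours on the minus strand of chromosome 4, at chr4:49465071-49465130 and chr4:49401175-49401234. No annotation of mm8 was used here, so the exon of each probe is not given, and whether near-identical copies such as Acot1 and Acot2 share signal across their probes was not tested.

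The promoters of the 4 clustered genes with the largest ratios are shown because these genes stood higher together in males given Adeno-Cux2. Each is the 250 bases before a transcript start listed by RefSeq (the first entry of the gene in the promoter table) on GRCm38.p6, plus strand, at chr12:84009252-84009501 for Acot1, chr12:83987611-83987860 for Acot2, chr12:84051894-84052143 for Acot3 and chr12:84038129-84038378 for Acot4. The Acot4 stretch lies inside the gene as RefSeq lists it, which starts at 84037254, so it is not upstream of the whole gene. Capitals mark AGGTCA on either strand, the half-site read by many nuclear receptors.
Acot1: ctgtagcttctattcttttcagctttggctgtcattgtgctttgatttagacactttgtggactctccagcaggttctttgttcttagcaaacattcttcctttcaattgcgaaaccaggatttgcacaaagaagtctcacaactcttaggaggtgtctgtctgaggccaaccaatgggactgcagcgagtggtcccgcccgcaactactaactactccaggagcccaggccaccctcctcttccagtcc
Acot2: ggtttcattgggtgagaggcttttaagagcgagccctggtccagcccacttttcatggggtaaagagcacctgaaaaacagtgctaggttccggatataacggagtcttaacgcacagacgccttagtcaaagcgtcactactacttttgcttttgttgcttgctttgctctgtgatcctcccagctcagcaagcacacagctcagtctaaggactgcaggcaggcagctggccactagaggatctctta
Acot3: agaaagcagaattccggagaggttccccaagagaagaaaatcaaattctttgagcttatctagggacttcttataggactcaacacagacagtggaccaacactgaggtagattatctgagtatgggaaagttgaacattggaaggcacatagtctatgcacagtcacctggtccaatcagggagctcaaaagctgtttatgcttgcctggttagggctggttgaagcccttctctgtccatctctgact
Acot4: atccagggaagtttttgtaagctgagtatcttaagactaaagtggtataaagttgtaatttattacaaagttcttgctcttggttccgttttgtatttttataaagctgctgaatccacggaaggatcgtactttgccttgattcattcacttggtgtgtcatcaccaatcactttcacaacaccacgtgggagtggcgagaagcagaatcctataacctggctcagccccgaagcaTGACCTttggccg
Promoters were found for all 9 genes, in 12 entries. AGGTCA was present in 4 of the 12 entries, against 14.0% of the 32851 mouse promoters of this length. Among the genes it lay 13 bases before the listed transcript start of Acot4 and 110 before that of Acot12. In the 2 entries of Acot5 it lay 224 and 225 bases before the start. Each time it was the reverse complement. Of the first entries not shown, those of Acot8 and Acnat1 lie inside the gene as RefSeq lists it. So do nearly all of the Acot5 stretch and most of the Acot12 stretch. A pair of AGGTCA in tandem with 1 base between, the form bound by PPAR-alpha with its partner RXR, was in none of the 12 entries (0.0335% of all promoters). ATCGAT and ATCAAT, the letters read by Cux factors, were in none of them either (0.728% and 6.72% of all promoters, both strands). In pairwise alignments the 10 pairs within the cluster of Acot1 to Acot5 were 48.5% to 51.9% identical, and the other 26 pairs 44.2% to 53.1%.

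Cux2 itself was read first, as a check of the labels. In males its brighter probe was higher under Adeno-Cux2, at 0.60 ± 0.09 at day 5 (log2 ratio ± SE, 2 arrays) and 0.49 ± 0.09 at day 3. In females the pools labelled Adeno-Cux2 had less Cux2 signal than the pools labelled Adeno-CMV, at −0.61 ± 0.09 (−0.58 and −0.65 on the 2 arrays), and a further probe had the same sign in each comparison. The female direction thus goes against the label, and the sources used here do not say if the virus holds the stretch that these probes read. In untreated liver the brighter Cux2 probe was lower in males than in females, at −1.88 ± 0.09 (3.67-fold). The part of the females' own Cux2 in the female value was not tested. Hepatocyte markers were above background in at least 1 channel of every array (9 of 10 listed genes matched). Neutrophil markers rose in 7 of 8 genes in each of the 3 virus comparisons, macrophage markers in 10 of 10 at male day 5, 7 at female day 5 and 4 at male day 3 (where 3 fell), and cholangiocyte markers in 5, 7 and 5 of 7. Stellate markers rose in 7, 6 and 5 of 8 genes. Of 9 T and natural killer markers 6, 3 and 6 rose, all of them natural killer or cytotoxic genes (such as Gzma, Ncr1 and Nkg7). The T cell markers Cd3e, Cd3g and Cd8a were not called higher in any virus comparison, and Cd3e fell at male day 3 (−0.23 ± 0.06, adjusted p = 0.021). Over all genes, 13.8%, 12.7% and 23.9% were called higher in males at day 5, females at day 5 and males at day 3. Over the 6 pools of each virus, the log2 summed signal was 12.51 to 14.97 under Adeno-CMV and 14.18 to 16.76 under Adeno-Cux2 for neutrophil markers, and 15.08 to 16.09 and 16.69 to 17.32 for macrophage markers. It was 14.24 to 14.84 and 15.84 to 16.77 for cholangiocyte markers. No marker of these 3 lists was at background in both channels of a virus array. Background in 1 channel alone was not counted. The part of these markers in the results below was not tested. In bulk liver RNA, fewer cells of a type and less RNA per cell cannot be told apart.

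A probe was called when limma's moderated test, with the comparisons fitted together and a term for the dye, gave a Benjamini-Hochberg adjusted p under 0.05 over all 33330 probes. In untreated liver 6 of the 10 probes were called, all lower in males, where 9.78% of all probes were called and 5.07% were called lower. Their median log2 ratio was −0.68, beside 0.00 over all probes. In males at day 5 the count was 7 (5 higher and 2 lower, where 16.8% of all probes were called, 12.0% higher and 4.79% lower), and the median was 0.46. In females at day 5 it was 4 (2 higher and 2 lower, where 17.4% of all probes were called, 11.2% higher and 6.20% lower), with a median of −0.06. In males at day 3 it was 7 (6 higher and 1 lower, where 42.9% of all probes were called, 22.8% higher and 20.1% lower), with a median of 0.80. Acot1 to Acot4 made up every rise among the members at day 5, and Acot5 joined them in males at day 3. Without replicate 1 or without replicate 2 of male day 5, the male day 5 count was 2, those of Acot3 and the brighter Acot4 probe, and it was 4 with the scanner software's own log ratios. The female day 5 count was 2 without its replicate 1, 1 without its replicate 2 and 2 without either male day 5 array.

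**Figure D1:**
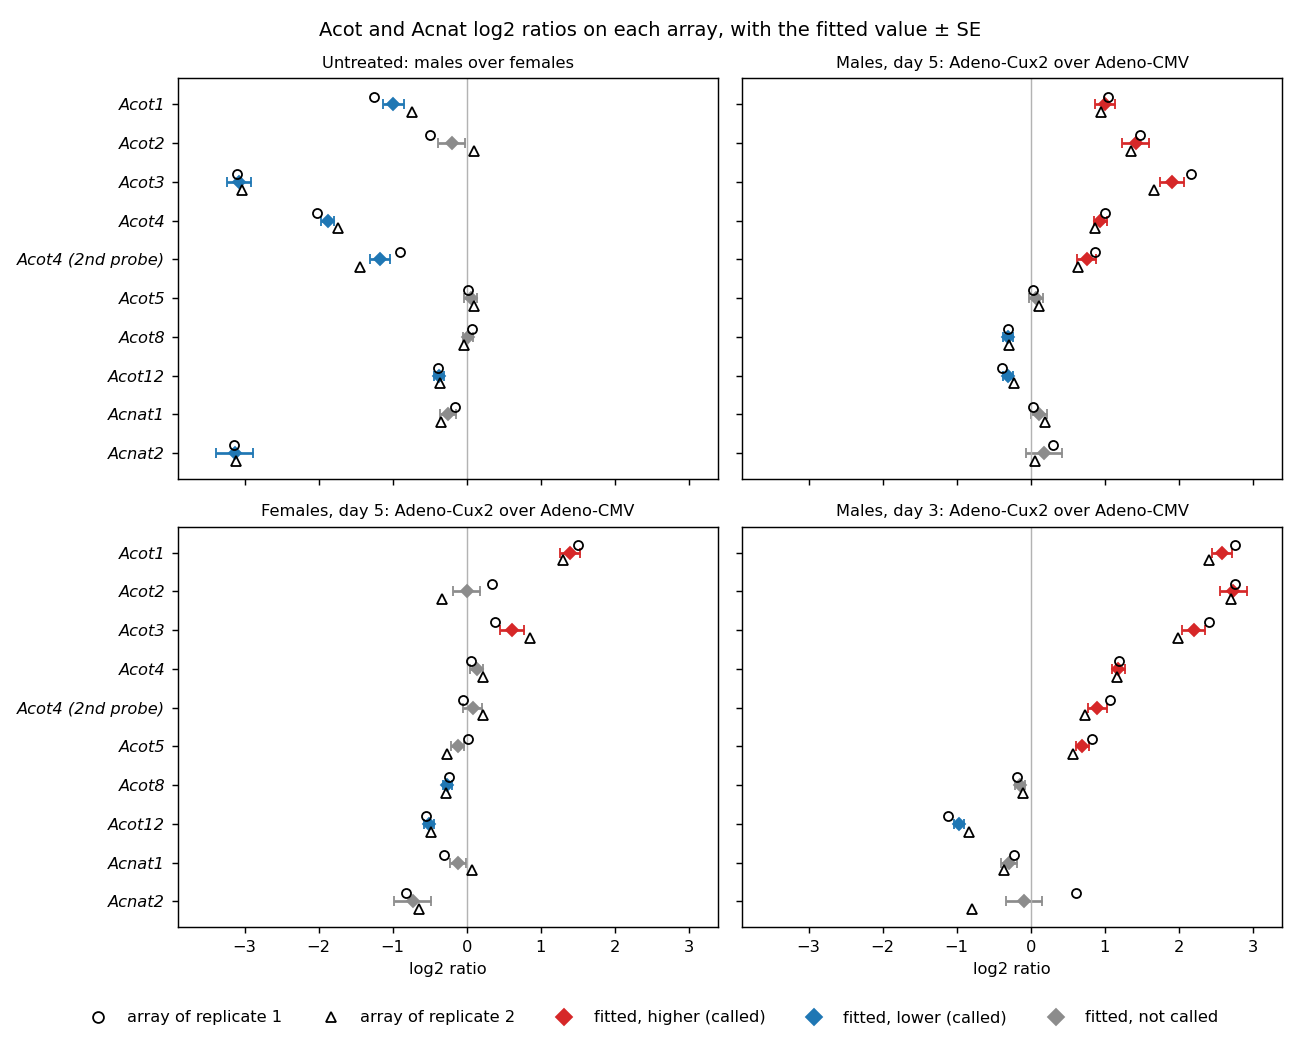
Log2 ratios of the 10 probes on each array (open circle, replicate 1; open triangle, replicate 2) and the fitted value ± SE (diamond; red called higher, blue called lower, grey not called), in 1 panel for each comparison. The points of Acot1 to Acot4 lie to the left of 0 in untreated males over females, except Acot2 on replicate 2, and to the right of 0 in both male virus comparisons.

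Acot3, a peroxisomal thioesterase of long-chain acyl-CoAs, had the widest range of the cluster. The ratio of untreated males to females was −3.10 and −3.04 on the 2 arrays, a fitted −3.07 ± 0.16 (8.39-fold lower in males, adjusted p = 0.000193). Adeno-Cux2 over Adeno-CMV gave 2.16 and 1.66 in males at day 5 and 2.41 and 1.99 in males at day 3. The fitted rises were 1.91 ± 0.16 (3.76-fold, adjusted p = 0.000382) and 2.20 ± 0.16 (4.59-fold, adjusted p = 8.3e-05). In both sets the arrays had the same sign and their difference was small beside the ratio. In females at day 5 the arrays gave 0.38 and 0.85, a fitted 0.61 ± 0.16 (1.53-fold, adjusted p = 0.0421). That call was lost in 9 of 18 alternatives, among them the fit within its slide (adjusted p = 0.0808), with an offset of 10 (0.0697) and without female day 5 replicate 2, where the value was 0.24 (0.505). It was also lost without either untreated array (0.0523) or either male day 5 array (0.0534).

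The level of Acot3 in each pool, read as the log2 intensity of its own channel after loess and Aquantile scaling, separated the conditions. Untreated males had 7.59 and 7.67, males given Adeno-CMV 7.95 and 8.30 at day 3 and 7.93 and 8.33 at day 5. Males given Adeno-Cux2 had 10.36 and 10.29 at day 3 and 10.09 and 9.99 at day 5. Untreated females had 10.69 and 10.70, females given Adeno-CMV 9.73 and 8.85, and females labelled Adeno-Cux2 10.11 and 9.70. All 6 male pools without Adeno-Cux2 thus lay below all other pools, and the 4 male pools given Adeno-Cux2 (9.99 to 10.36) lay inside the range of the 6 female pools (8.85 to 10.70). The pools of females labelled Adeno-Cux2 and Adeno-CMV overlapped. The male Adeno-CMV pools of day 3 and day 5 did not differ beyond their spread. Such levels are open to dye bias and to the slide: 1 slide held the arrays of untreated mice and of males at day 5, and the other slide held the rest.

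Acot4, a peroxisomal thioesterase known for dicarboxylyl-CoA substrates, followed the same order with smaller ratios. On its brighter probe untreated males over females gave −2.02 and −1.73, a fitted −1.88 ± 0.09 (3.67-fold lower, adjusted p = 0.000122). The rise under Adeno-Cux2 was 0.94 ± 0.09 in males at day 5 (1.01 and 0.87 on the arrays, adjusted p = 0.000593) and 1.18 ± 0.09 at day 3 (1.20 and 1.17, adjusted p = 8.44e-05). In females at day 5 the value was 0.14 ± 0.09 (0.05 and 0.23, adjusted p = 0.344) and was not called. The dimmer probe gave −1.17 ± 0.13 in untreated liver, 0.75 ± 0.13 and 0.90 ± 0.13 in males at day 5 and day 3, and 0.08 ± 0.13 in females, with the same calls. Its male day 5 call was lost without replicate 1 (adjusted p = 0.16) or replicate 2 (0.156) of that comparison.

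By level, the 6 male pools without Adeno-Cux2 had 11.00 to 11.67 of Acot4 on the brighter probe and the 4 male pools given it had 12.31 to 12.54. The 6 female pools had 12.35 to 13.03, highest in untreated females (13.03 and 12.87). Males given Adeno-Cux2 and females of both virus groups overlapped at about this level, with means of 12.37 and 12.50 in males at day 3 and day 5, 12.39 in females given Adeno-CMV and 12.52 in females labelled Adeno-Cux2. Untreated males (11.00 and 11.13) and males given Adeno-CMV at day 3 (11.11 and 11.27) overlapped as well.

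**Figure D2:**
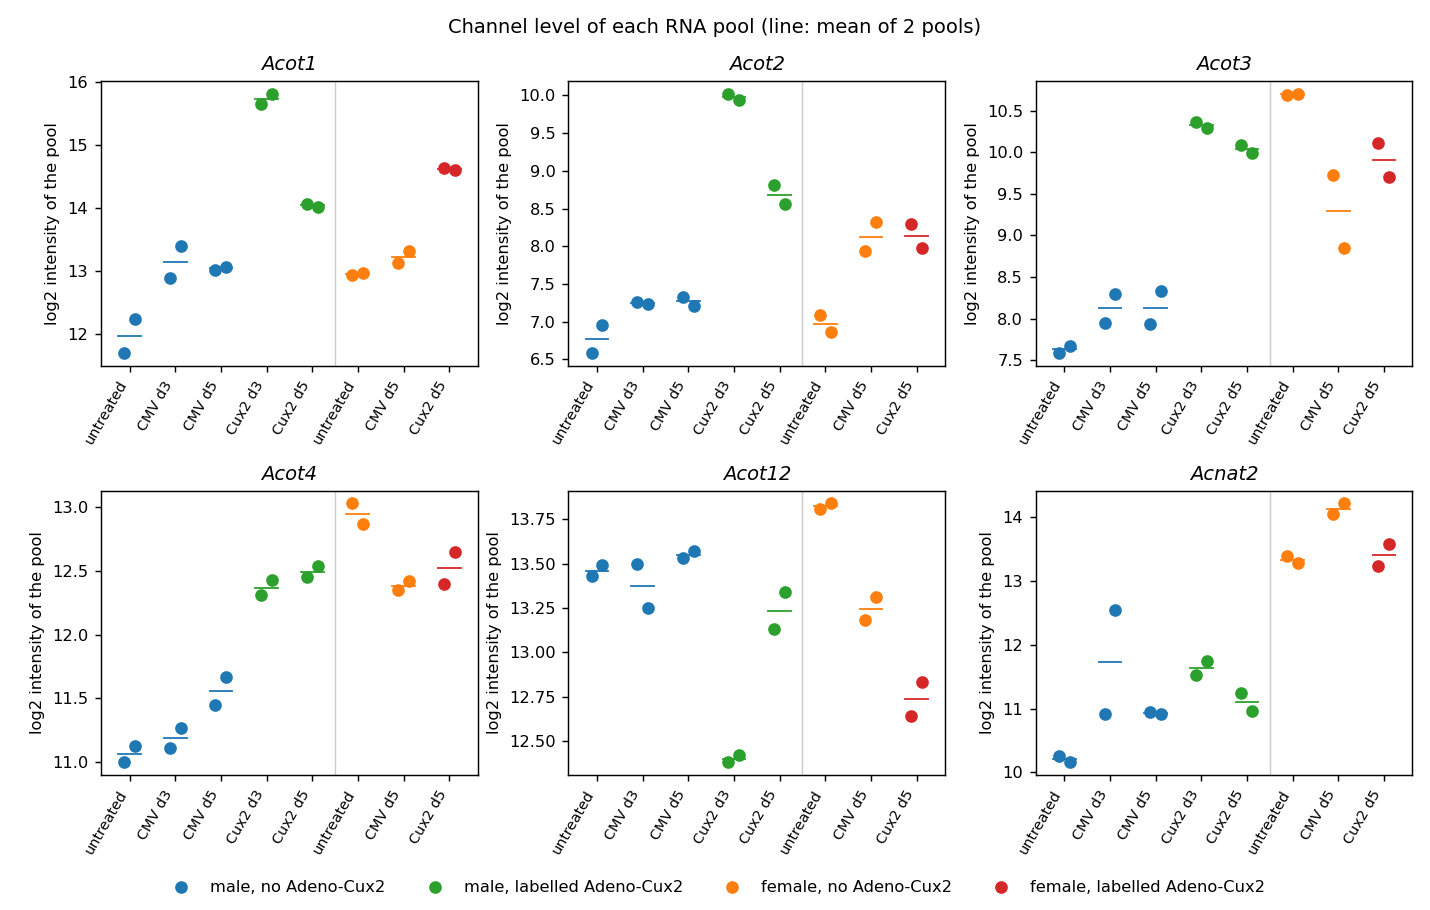
Log2 intensity of each RNA pool for 6 genes, in 8 conditions (points, 2 pools each; line, their mean; CMV and Cux2 name the virus, d3 and d5 the day). For Acot3 the male pools labelled Adeno-Cux2 (9.99 to 10.36) stand among the female pools, and for Acnat2 all male pools (10.16 to 12.55) stand below all female pools (13.24 to 14.22).

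Acot1, the cytosolic thioesterase of long-chain acyl-CoAs, rose in all 3 virus comparisons. In males at day 3 the arrays gave 2.76 and 2.41, a fitted 2.59 ± 0.14 (6.00-fold, adjusted p = 2.91e-05). In males at day 5 they gave 1.05 and 0.96, a fitted 1.00 ± 0.14 (2.00-fold, adjusted p = 0.00326). In females at day 5 they gave 1.50 and 1.30, a fitted 1.40 ± 0.14 (2.64-fold, adjusted p = 0.00107), so that every array of every virus comparison was above 0. In untreated liver males were lower, at −1.24 and −0.73, a fitted −0.99 ± 0.14 (adjusted p = 0.00742). That call was lost when the ratios computed by the scanner software were used (adjusted p = 0.0535) and when its 2 arrays were fitted alone (0.0601), and the male day 5 call without its replicate 1 (0.0946) or replicate 2 (0.0805).

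The order of Acot1 levels was not that of Acot3. Untreated males had 11.70 and 12.24, and the other 8 pools without Adeno-Cux2 lay together between 12.89 and 13.40, in both sexes and with or without the control virus. Above them stood males given Adeno-Cux2 at day 5 (14.07 and 14.01), females labelled Adeno-Cux2 at day 5 (14.64 and 14.61) and males given Adeno-Cux2 at day 3 (15.65 and 15.81). These 3 groups did not overlap with each other or with any pool without Adeno-Cux2.

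Acot2, the mitochondrial counterpart of Acot1, rose in males and was not called in females. At day 3 the arrays gave 2.76 and 2.71, a fitted 2.74 ± 0.18 (6.67-fold, adjusted p = 5.8e-05), and at day 5 they gave 1.48 and 1.36, a fitted 1.42 ± 0.18 (2.67-fold, adjusted p = 0.00241). In females at day 5 the arrays had opposite signs, 0.35 and −0.34, with a fitted 0.00 ± 0.18 (adjusted p = 0.991). The untreated arrays also had opposite signs, −0.50 and 0.10 (adjusted p = 0.541). The male day 5 call was lost without its replicate 1 (adjusted p = 0.0746) or replicate 2 (0.0677). By level, females given Adeno-CMV (7.94 and 8.32) overlapped with females labelled Adeno-Cux2 (8.29 and 7.98), and both stood above the 6 male pools without Adeno-Cux2 (6.59 to 7.33) and untreated females (7.09 and 6.86). Males given Adeno-Cux2 had 8.81 and 8.56 at day 5 and 10.02 and 9.94 at day 3.

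Acot5, a peroxisomal thioesterase, was dim on every array. Its signal was well above background on 0 of 2 arrays in untreated males and on 1 of 2 in untreated females, so no fold is given there. In males at day 3 the arrays gave 0.82 and 0.57, a fitted 0.70 ± 0.09 (1.62-fold, adjusted p = 0.00087), with 1 of the 2 Adeno-CMV pools well above background. The value ranged from 0.17 to 1.75 over the alternatives, with the lowest where no background was subtracted and the highest with the software's log ratios. In males and females at day 5 it stood at 0.07 ± 0.09 and −0.12 ± 0.09, neither called.

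Outside the cluster no member was called higher in any of the 4 comparisons. Acot12, a cytosolic enzyme that hydrolyses acetyl-CoA, was lower in all 4 comparisons. At male day 3 the arrays gave −1.12 and −0.83, a fitted −0.97 ± 0.07 (1.96-fold lower, adjusted p = 7.83e-05). In females at day 5 they gave −0.54 and −0.48, a fitted −0.51 ± 0.07 (adjusted p = 0.0039). The male day 5 arrays gave −0.39 and −0.23, a fitted −0.31 ± 0.07 (adjusted p = 0.025). Untreated males were lower than females at −0.37 ± 0.07 (−0.39 and −0.36, adjusted p = 0.0225). All 8 arrays were below 0. The untreated call was lost in 8 of 18 alternatives (adjusted p up to 0.229) and the male day 5 call in 5 (up to 0.327), among them the fits without replicate 1 (0.109 untreated, 0.327 male day 5) or replicate 2 (0.09 and 0.283) of that comparison. The untreated call was lost without either male day 5 array too (0.0659). The female call was lost without its replicate 1 (0.0519) or replicate 2 (0.0651). Hepatocyte markers themselves stood at a median of −0.27 at male day 3, 0.37 at female day 5 and 0.23 at male day 5. Of 9 such genes, 2 were called higher and 4 lower at male day 3 (23.9% and 20.4% of all genes). At female day 5 they were 5 and 0 (12.7% and 6.26%), and at male day 5 they were 4 and 0 (13.8% and 4.83%).

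Acot8, a peroxisomal thioesterase of broad substrate range, fell slightly at day 5. The arrays gave −0.31 and −0.30 in males, a fitted −0.31 ± 0.07 (adjusted p = 0.021), and −0.23 and −0.28 in females, a fitted −0.26 ± 0.07 (adjusted p = 0.0391). At male day 3 the value was −0.15 ± 0.07 (adjusted p = 0.122), and the untreated arrays had opposite signs (0.08 and −0.03). The male call was lost in 5 of 18 alternatives and the female call in 11. Adjusted p was 0.314 and 0.256 in males without male day 5 replicate 1 and 2, and 0.249 and 0.298 in females without female day 5 replicate 1 and 2. The female call was lost without either male day 5 array (0.0922) or either male day 3 array (0.0556) as well.

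Acnat2 had as large a sex ratio as Acot3 and was not called under virus. Untreated males over females gave −3.15 and −3.12, a fitted −3.13 ± 0.24 (8.78-fold lower in males, adjusted p = 0.000667), and the call held in 18 of 18 alternatives. Under Adeno-Cux2 males at day 5 gave 0.29 and 0.06 (adjusted p = 0.706) and females labelled Adeno-Cux2 −0.82 and −0.64, a fitted −0.73 ± 0.24 (adjusted p = 0.0907). The male day 3 arrays disagreed, at 0.61 and −0.80 (fitted −0.09 ± 0.24, adjusted p = 0.799). Without male day 3 replicate 2 the value was 0.61 (adjusted p = 0.0251) and without replicate 1 it was −0.79 (0.01), so the 2 arrays give calls of opposite sign. The female value was called in 4 of 18 alternatives, when either male day 3 array was left out (adjusted p = 0.00497), with its 2 arrays alone (0.0108) and with median centring (0.0432).

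The pools behind that disagreement were the 2 male Adeno-CMV pools of day 3, which had Acnat2 levels of 10.92 and 12.55, while the Adeno-Cux2 pools had 11.53 and 11.75. Untreated males had 10.25 and 10.16, and males at day 5 had 10.95 and 10.92 under Adeno-CMV and 11.24 and 10.97 under Adeno-Cux2. All 10 male pools (10.16 to 12.55) stayed below all 6 female pools (13.24 to 14.22). Acnat1, which conjugates fatty acids with taurine, was not called in any comparison. Its ratios were −0.25 ± 0.11 in untreated liver, 0.11 ± 0.11 in males and −0.12 ± 0.11 in females at day 5, and −0.29 ± 0.11 at male day 3, and its level lay between 13.57 and 14.44 in all 16 pools. The last of these ratios was called (adjusted p = 0.0352 to 0.045) without either female day 5 array or either untreated array, and with its 2 arrays alone (0.0363).

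The responses were then compared directly, as differences of log2 ratios in the same fit. Between females and males at day 5 none of the 10 probes was called by limma (0.201% of all probes were), and 5 of 10 had an unadjusted p under 0.05. Those furthest below 0 were Acot2 at −1.41 (95% interval −2.03 to −0.80, adjusted p = 0.102), Acot3 at −1.30 (−1.84 to −0.76, 0.0906), Acnat2 at −0.91 (adjusted p = 0.435) and Acot4 at −0.80 (−1.09 to −0.50, 0.0743). Acot1 stood at 0.40 (−0.07 to 0.86, 0.593), on the other side of 0. No alternative brought any of them under the threshold. The intervals of Acot2, Acot3 and Acot4 exclude 0 singly while the adjusted values miss the threshold, so a difference between the sexes in these responses was neither shown nor shown absent.

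Between male day 5 and male day 3, 4 of 10 probes were called, 1 higher and 3 lower (12.1% of all probes, 7.25% higher and 4.81% lower). Acot1 was lower at day 5 by a difference of −1.58 (95% interval −2.05 to −1.12, adjusted p = 0.00575), Acot2 by −1.32 (−1.93 to −0.71, 0.0217) and Acot5 by −0.63 (−0.93 to −0.33, 0.0237). The Acot5 difference ran from −0.14 with no background subtraction (adjusted p = 0.102) to −1.40 with the software's log ratios (0.112), and its call was lost in 7 of 16 alternatives. Acot12 was higher, at 0.66 (0.43 to 0.90, 0.00971), that is, less far below the control. Acot3 (−0.29, −0.83 to 0.25) and Acot4 (−0.25, −0.54 to 0.05) were not called. In both of these tests the slide changes along with the groups and cannot be told apart from them. The count was 0 without male day 5 replicate 1 or 2 and 0 with ratios from the scanner software. It was 2 with median centring. The calls of Acot2 and Acot5 were lost without either male day 3 array, and that of Acot12 without male day 3 replicate 1. Without that replicate the Acnat2 difference was 0.97, in place of 0.27.

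**Figure D3:**
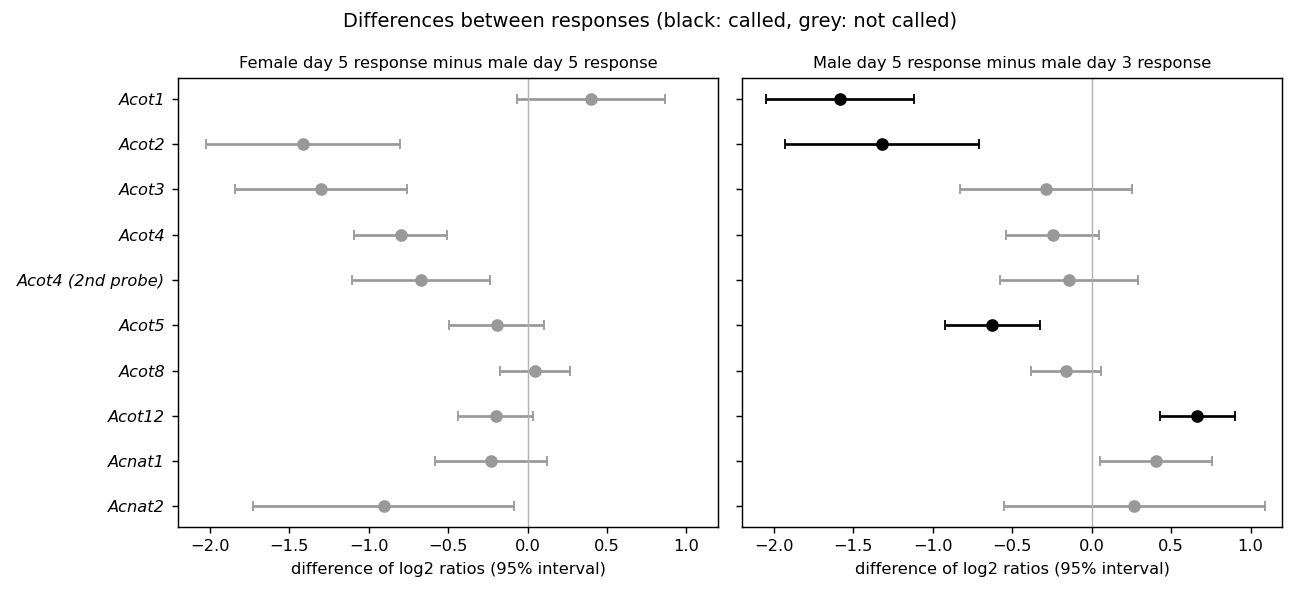
Differences between responses for the 10 probes (points, difference of log2 ratios; bars, 95% interval; black called, grey not called). In the left panel Acot2, Acot3 and both Acot4 probes lie below 0 and are not called, and in the right panel Acot1, Acot2 and Acot5 are called below 0 and Acot12 above it.

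The other genes of acyl-CoA metabolism were followed in 5 lists, each gene by its brightest probe, with 89 genes measured. Under Adeno-Cux2 these genes were called lower more often than higher. In males at day 5, 12 were higher and 26 lower (13.8% and 4.83% of all genes), in females 8 and 25 (12.7% and 6.26%), and in males at day 3, 21 and 48 (23.9% and 20.4%). In untreated liver 11 were higher in males and 17 lower (4.83% and 6.04%). In both male virus comparisons the called probes of Acot1 to Acot5 were higher, and Acot12 was lower.

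Other thioesterases and relatives divided by member. Of 13 genes, 5 rose and 5 fell at male day 3, 3 and 3 at male day 5, and 4 and 3 at female day 5. Acot9 and Acot10, mitochondrial thioesterases that are close copies of each other, rose together, at 2.00 ± 0.10 and 1.94 ± 0.11 at male day 3. They stood at 0.87 ± 0.10 and 0.94 ± 0.11 at male day 5 and 0.73 ± 0.10 and 0.74 ± 0.11 at female day 5. The adjusted p in limma was 0.00495 or lower for each. Whether the probes of these 2 genes share signal was not tested. Nudt7, a peroxisomal hydrolase that degrades coenzyme A and its esters, fell by 3.02 on the log2 scale at male day 3 (−2.98 and −3.07 on the arrays, adjusted p = 2.57e-05), and stood at −1.42 ± 0.15 and −1.10 ± 0.15 at day 5 in males and females. In untreated liver Nudt7 was higher in males (1.25 ± 0.15, adjusted p = 0.00455). Baat, the bile acid conjugating neighbour of the Acnat genes, fell at male day 3 (−0.84 ± 0.10) and female day 5 (−0.46 ± 0.10). Acot6, the remaining gene of the cluster, was not called in any comparison (−0.13 to 0.08).

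The list for peroxisomal beta-oxidation, the pathway that shortens very long chain acyl-CoAs, also takes in peroxisomal genes outside it, such as Cat and Phyh. It held 13 falls and 4 rises among 22 genes at male day 3, with a median of −0.67. Cat (catalase) stood at −1.74 ± 0.13, Phyh, which hydroxylates phytanoyl-CoA, at −1.40 ± 0.08 and Scp2, a sterol carrier with thiolase activity, at −1.24 ± 0.09. Crot, which transfers medium chains to carnitine for export from the peroxisome, rose in all 3 virus comparisons, by 1.31 ± 0.09 in males at day 3 and, at day 5, by 0.99 ± 0.09 in males and 0.64 ± 0.09 in females. Abcd2, a peroxisomal acyl-CoA transporter, was lower in untreated males (−1.71 ± 0.09) and rose in males at day 5 (0.79 ± 0.09) and day 3 (0.88 ± 0.09). These were the signs of Acot3 and Acot4 in those comparisons. At female day 5 Abcd2 stood at −0.13 ± 0.09, not called, beside 0.61 for Acot3 and 0.14 for Acot4. At day 5 the list had 3 rises and 8 falls in males and 2 and 5 in females.

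Mitochondrial beta-oxidation and the acyl-CoA synthetases, which make the substrates of thioesterases, fell at male day 3. Of 18 beta-oxidation genes 11 fell and 2 rose. Of 17 synthetases 12 fell and 2 rose, with Acsm3, a medium-chain synthetase, at −1.95 ± 0.12 and Slc27a5, the liver bile acid and fatty acid synthetase, at −1.66 ± 0.09. Acss1, a mitochondrial acetyl-CoA synthetase, rose in all 3 virus comparisons (1.37 ± 0.08, 0.87 ± 0.08 and 0.91 ± 0.08 at male day 5, female day 5 and male day 3). At day 5 beta-oxidation had 0 rises in either sex by limma, with 5 falls in males and 6 in females.

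PPAR-alpha and genes known to respond to it went in both directions in males. Of 20 measured, 8 rose and 8 fell at male day 3, 4 and 7 at male day 5, and 0 and 10 at female day 5. Pdk4, the kinase that holds back pyruvate oxidation, rose in males, by 3.41 ± 0.20 at day 3 (10.6-fold) and 2.09 ± 0.20 at day 5. Cyp4a14, a fatty acid hydroxylase, was lower in untreated males (−3.10 ± 0.34) and rose in males at day 5 (2.18 ± 0.34) and day 3 (1.45 ± 0.34). Vnn1, a pantetheinase, stood at −1.96 ± 0.20 at male day 5 and −1.27 ± 0.20 at female day 5. Ppara itself fell at male day 3 (−1.31 ± 0.11, adjusted p = 0.000129) and female day 5 (−0.64 ± 0.11, 0.00867) and stood at −0.39 ± 0.11 at male day 5 (0.0513).

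**Figure D4:**
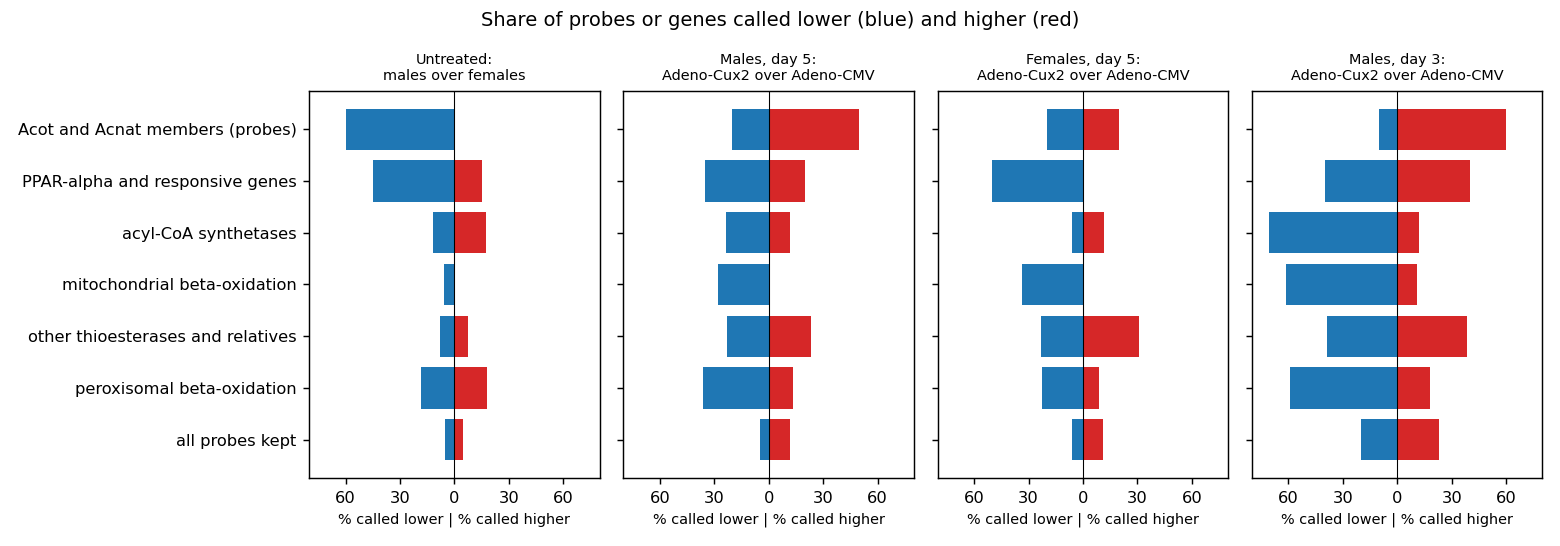
Share of the 10 member probes, of the genes in each of 5 lists and of all probes kept that were called lower (blue, left) or higher (red, right), in percent, in each comparison. In both male virus comparisons the members have more calls to the right, and the 2 beta-oxidation lists more to the left.

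Genes with the most similar ratios were sought over all 8 arrays, as the smallest root mean square difference in log2 ratio among 22197 genes. For Acot3 these were Nipal1 (0.481), Tox (0.494) and Cyp2a4 (0.501), a female-predominant steroid hydroxylase with ratios of −2.87 in untreated liver, 1.36 and 1.59 in males at day 5 and day 3, and 0.53 in females. For Acot4 they were Bmper (0.263), Vldlr (0.281) and Ddit4 (0.291). For Acot1 they were Slc51b (0.335), Bex4 (0.352) and Itpr3 (0.383). Acot2 was nearest to Atf3 (0.244), Kitl (0.249) and Defb1 (0.304), and Atf3, a stress-induced transcription factor, had ratios of −0.06, 1.46, −0.10 and 2.33 for untreated liver, males at day 5, females and males at day 3. Acot12 was nearest to Slc2a9 (0.106), Kcnn2 (0.110) and Dpyd (0.128). Acot8 was nearest to AK078423 (0.048), Abt1 (0.070) and Zfp410 (0.073), a set with little change to be matched.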

How the data were processed

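Per the file headers, the authors deposited output of Agilent Feature Extraction. Its version was 10.7.1.1 on the female day 5 and male day 3 slide and 9.5.3.1 on the other slide. The deposited intensity values are the median brightness of each spot and its local background in each channel, not normalized. The deposited LogRatio values are log10 ratios of red to green from the software, with its own background and dye steps, per the file headers. A deposited matrix of the whole series repeats these log10 ratios, within 5e-06, with replicate 2 turned in sign. Spot flags of 0 or 1 are deposited per the file headers.

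From the median intensities, background was corrected by normexp with an offset of 50 and ratios were normalized by loess in limma 3.58.1 (R 4.3.3, R package data.table, version 1.17.8). Control spots and outlier spots had weight 0. Ratios were turned to males over females or Adeno-Cux2 over Adeno-CMV by the dyes in the labels, and spots of 1 probe averaged. A probe was kept if well above background in 1 channel on both arrays of a comparison. A single limma model with 4 comparisons and a dye term, which is also the replicate number, was fitted to 8 arrays (3 residual degrees of freedom, prior 3.9). Tests were 2-sided. The number of arrays limits the precision. By the labels the replicate number marks the dye orientation. Deviations of same-numbered arrays from their comparison means correlated at −0.072 to 0.296. These correlations cannot show whether the number marks anything else. The median green signal of an array was 343 to 442 over a background of 289 to 315, the median red signal 430 to 512 over 327 to 342.5, and 0 to 16 spots were saturated. Across probes, the 2 arrays of a comparison correlated at 0.596 to 0.89. Slide and comparison are tied, with 2 comparisons on each of 2 slides. The pipeline was tested on simulated data.

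The members and lists were chosen with earlier results of these data known. Named were all members, for each list up to 3 called genes per direction and comparison with the same sign on both arrays, and the 3 genes nearest to each member called in 2 or more comparisons. Acot6, Acot9 and Acot10 are also described as relatives of the members, Acot6 outside this rule and after its values were seen. A further gene that the rule would name is not reported here. The series text gives 11 untreated females and the labels used here 10. The stated purpose of the female arrays names males. Alternatives left out the dye term, the background step or the filter on dim probes, took the software's log ratios, an offset of 10, median centring, an intensity trend, 1 probe per gene or fewer arrays, and left out each array in turn.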

Additional observations from a re-analysis of the deposited data

Results flagged for a closer look

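Between the male responses at day 5 and at day 3, 4 members differed by the direct test of the difference in limma. Acot1 stood at −1.58 ± 0.20 (adjusted p = 0.00575), Acot2 at −1.32 ± 0.26 (0.0217) and Acot5 at −0.63 ± 0.13 (0.0237), each less raised over the control at day 5 than at day 3. Acot12 stood at 0.66 ± 0.10 (0.00971), less lowered at day 5. The calls of Acot1, Acot2 and Acot12 were lost in 3, 6 and 5 of 16 alternatives. The Acot5 call was lost in 7 of 16, with values from −1.40 to −0.14, and 1 of its 2 male day 3 Adeno-CMV pools was not well above background. The arrays of day 5 and day 3 lay on separate slides, and slide and day cannot be told apart.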

How the results depend on the processing

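Of 1034 single ratios refitted, 952 kept their side of the threshold and, where called, their direction. A further 70 lost the call, 11 gained it and 1 reversed. Signs were compared only where the main or the refitted ratio was called, so uncalled ratios that changed sign count among the 952. Acot2 at female day 5, for example, ran from −0.41 to 0.42 without a call. Among the 554 refits that kept all arrays of a comparison in place or changed the processing, 30 lost and 3 gained a call and 0 reversed; the other changes came from leaving out 1 array. Leaving out 1 array at a time, the number of member probes called was 5 to 6 for untreated liver, 2 to 7 for male day 5, 1 to 4 for female day 5, 7 to 8 for male day 3, 0 to 0 for female against male day 5 and 0 to 4 for male day 5 against day 3. With the software's log ratios it was 4 for untreated liver, 4 for male day 5, 2 for female day 5 and 0 for male day 5 against day 3. Female day 5 gave 2 with an offset of 10 and 2 within its slide, and male day 5 against day 3 gave 2 with median centring. The cause of these changes was not tested. Acnat2 at male day 3 was 0.61 without male day 3 replicate 2, and −0.79 without male day 3 replicate 1, in place of −0.09. Without the replicate block, which here is the dye term, the counts were 6, 7, 4, 7, 0 and 4, and no call changed. The slide as a random block could not be fitted, because each comparison lies within 1 slide, and it was not run. Where leaving out an array left 1 array in a comparison, that array was assumed to vary like the others. Signal over background limits Acot5 in particular.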
